A study of Mus musculus with 12 samples.

Results

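The transcriptomes of cells that cannot attach LC3 to membranes were set against those of cells that lack FIP200, using 9 of the 12 libraries of the series. All are 562 cells, a mouse endothelial line that immortalized spontaneously out of vascular tumors of Tsc1 iΔEC mice, so loss of Tsc1 is shared by every library, the control included. The group without LC3 conjugation held 6 libraries, 3 of Atg5 KO and 3 of Atg7 KO cells, and the other group held 3 libraries of Fip200 KO cells. Each KO was made with CRISPR-Cas9 and a lentiviral guide in this 1 line, with a guide against EGFP for the control. The labels do not say which guide or clone each library came from. The study calls its RNA samples of each KO independent replicates and its experiments in general biological replicates, without saying which cultures or clones they came from, so p-values measure the spread between these libraries. The 3 control libraries took no part in the comparison and are quoted only as background levels. The question is how far removal of the initiation step and removal of the conjugation step leave these cells with different transcripts.

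FIP200, encoded by Rb1cc1, holds together the ULK1 kinase complex that starts an autophagosome. ATG7 is the activating enzyme and ATG5 a part of the ligase that couple LC3 and its relatives to the lipid phosphatidylethanolamine on the growing membrane. Both steps are needed for canonical autophagy, but FIP200 also binds proteins outside that pathway, and the conjugation enzymes also place LC3 on single membranes.

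Reads assigned to genes numbered 17264989 to 21933165 per KO library, and 14199 to 14482 genes had a value above 0. Levels are RPKM, reads scaled to the length of the gene and the size of the library, and differences are on the scale of log2(RPKM + 0.5), Atg5 KO and Atg7 KO minus Fip200 KO unless stated. Fip200 KO 3 stood apart from the other Fip200 KO libraries. Over the 11937 genes tested, its correlation with Fip200 KO 1 and 2 was 0.874 to 0.902, whereas with the 6 conjugation libraries it was 0.931 to 0.952, and Fip200 KO 1 and 2 correlated at 0.944 with each other. Their own correlations with the conjugation libraries ran from 0.885 to 0.971, so that at least 1 of them was also nearer to a conjugation library than to its fellow. The 3 Atg5 KO libraries correlated at 0.965 to 0.995 and the 3 Atg7 KO libraries at 0.934 to 0.977. Atg5 KO 1 and 2 were the most alike pair within a genotype (chi-square per degree of freedom 8.66, other pairs 51.9 to 316). Each counts as 1 of the 6 conjugation libraries, and the labels do not say which cultures they came from. Since Fip200 KO 3 stood apart from its own group, results are given with and without it. That choice was made on these same values and takes the library least like its fellows out of the Fip200 KO group. P-values without Fip200 KO 3 are therefore not independent support. For interferon-stimulated and cholesterol genes it was also the Fip200 KO library nearest to the conjugation group, so leaving it out widens those contrasts by construction. At other genes, such as Spp1 (-2.18 with it and -1.96 without), the difference shrank. Atg7 KO 2 also stood apart at some genes, named after their values were seen: Xist, the RNA that silences an X chromosome, had 17 reads there and 15600 to 26202 in the other 8 KO libraries, and the imprinted genes Mest and Sgce had 19 and 0 reads. Xist varied among control libraries too, from 7 to 4807 reads, and all 3 lay below those 8 KO libraries. Without Atg7 KO 2 the medians of interferon-stimulated and of cholesterol genes were 1.05 and -0.486, and no gene was called in conjugation KO against Fip200 KO. The names of the libraries begin with FY for all 3 Fip200 KO libraries, with JG for Atg5 KO 1 and 2, and with Yang for Atg5 KO 3 and all Atg7 KO libraries, and what these letters stand for is not stated. Since FY marks the Fip200 KO libraries and no other KO library, the letters and the contrast with Fip200 KO cannot be told apart within the 9 libraries.

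The labelled endothelial identity was checked against fixed markers. All 9 endothelial markers, among them Pecam1 and Cdh5, were at 0.5 RPKM or more in all 9 KO libraries, with summed levels of 2068 to 2613 RPKM in Fip200 KO and 2211 to 3167 RPKM in the conjugation group. The label further calls the tissue lymphatic. Lyve1, Pdpn and Flt4 were at 51.5 RPKM or more in every KO library, but Prox1, the master regulator of lymphatic fate, ranged from 0.0366 to 5.79 RPKM. Of 8 mesenchymal markers 5 were under 0.5 RPKM in all 9 libraries, and 2 were at 0.5 RPKM or more in all 9. Their summed levels were 3.52 to 22 RPKM in Fip200 KO and 4.11 to 64.9 RPKM in the conjugation group. Of the 6 blood markers measured, 4 were under 0.5 RPKM in all 9 libraries (Ptprc, Csf1r, Adgre1, Cd79a). Cd68, a lysosomal protein of macrophages and other cells, was at 263 RPKM in Fip200 KO 1 and between 6.95 and 27.1 RPKM in the other 8.

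The 3 targeted genes were read first. Rb1cc1 stood at 5.18, 6.84 and 2.06 RPKM in Fip200 KO 1 to 3, at 5.81 to 6.92 RPKM in the conjugation libraries and at 6.43 to 8.27 RPKM in control. Fip200 KO 1 and 3 were below every conjugation and control library and Fip200 KO 2 was not (exact permutation test over the 9 libraries, p = 0.19). Atg5 was at 8.53, 15.5 and 12.6 RPKM in Atg5 KO, at 14 to 21.9 RPKM in Fip200 KO and at 10.6 to 14.2 RPKM in control. Atg7 was at 5.40, 2.64 and 8.34 RPKM in Atg7 KO and at 9.94 to 11.9 RPKM in Atg5 KO, and each Atg7 KO library lay below every control library, which had 18.4 to 25.0 RPKM. Each Atg5 KO library did too, and by reads so did Fip200 KO 2 and 3 (1004 and 728 reads, control 1404 to 2382 reads). Fip200 KO 1 had the highest Atg7 level of all, 38.3 RPKM (3061 reads). A CRISPR-Cas9 edit need not lower the transcript it hits, and the edits themselves were not measured in these files.

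With all 9 libraries, no gene passed an adjusted p of 0.1 at a change of 1 log2 unit or more by limma, neither lower in the conjugation group (0 of 11937 genes, 0%) nor higher (0 of 11937, 0%). The smallest adjusted p was 0.269, for Spp1. At an unadjusted p under 0.05, 462 genes were lower (3.87%) and 469 higher (3.93%). The 6 conjugation libraries were all lower than the 3 Fip200 KO libraries at 220 genes (1.84%) and all higher at 202 genes (1.69%); the exact two-sided permutation p of such a gene is 0.0238, the smallest that 84 splits of 9 libraries allow. Without Fip200 KO 3, limma called 169 of 11861 genes lower (1.42%) and 165 higher (1.39%). Leaving out Fip200 KO 2 in its place gave 1 gene in each direction, Cyp24a1, which breaks down vitamin D, lower (named after its value was seen) and Wtip higher, and leaving out any of the other 7 libraries gave none. Among the fits that left out 1 library, the number of calls thus turned on 1 of 3 Fip200 KO libraries. With all 9 kept, weights estimated for every library, lowest for Fip200 KO 3 (0.203), also called genes in both directions, as given with the alternatives below.

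**Figure D1:**
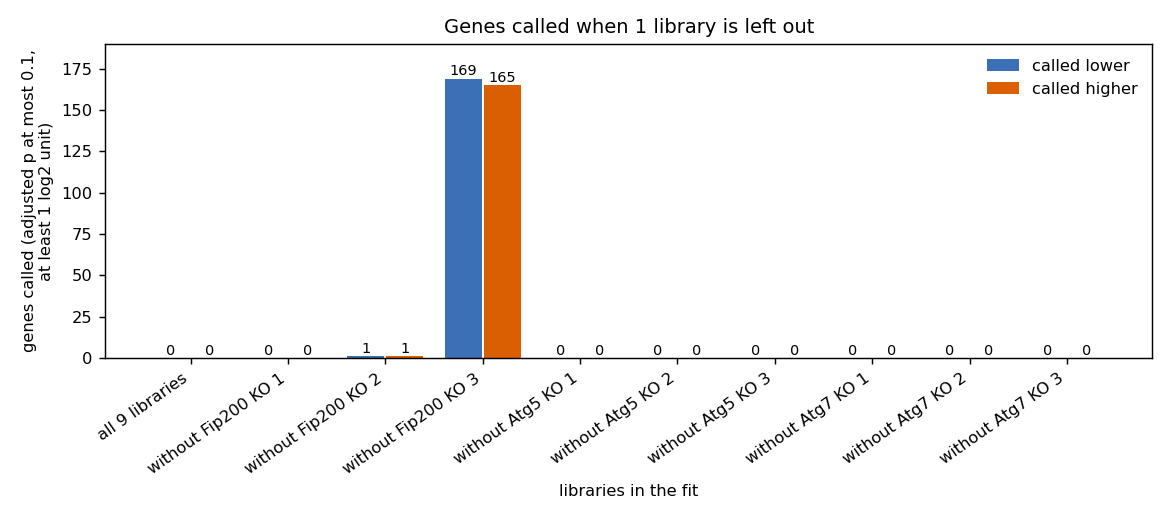
Genes called lower (blue) or higher (orange) in the Atg5 KO and Atg7 KO libraries than in the Fip200 KO libraries, by the libraries in the fit (x axis), as a count on the y axis. With all 9 libraries no gene was called; without Fip200 KO 3, 169 were lower and 165 higher, and without Fip200 KO 2 there was 1 in each direction.

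Genes of the interferon response made up the group that stood highest in the conjugation knockouts. Type I interferons act through a cell surface receptor, JAK kinases and a transcription factor complex that includes IRF9, which binds the interferon-stimulated response element before the genes for antiviral proteins. Of 42 genes on the list of interferon-stimulated genes 41 were tested, and all 41 had a fold change above 0, with a median of 1.05, beside 0.0158 over all genes tested. By limma none reached an adjusted p of 0.1. At an unadjusted p under 0.05, 27 of 41 were higher, against 3.93% of all genes, and 0 lower, against 3.87%. In 9 of 41 all 6 conjugation libraries were above all 3 Fip200 KO libraries, against 1.69% of all genes. Zbp1 passed the filter only through the conjugation libraries, and of the other 40, whose median was 1.04, 26 had an unadjusted p under 0.05 and 8 had no overlap. Without Fip200 KO 3 the median was 1.37, and 20 of the 41 were called higher by limma (19 of 40 leaving Zbp1 out), against 1.39% of all genes. The genes with an unadjusted p under 0.05 numbered 12 without Fip200 KO 1, 13 without Fip200 KO 2 and 5 of 42 in a fit of all 12 libraries with a term for the library-name letters, where the median was 0.806.

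Irf7, the transcription factor that amplifies type I interferon production, stood at 5.66, 15.4 and 17.1 RPKM in Fip200 KO, with Atg5 KO at 41.5, 33.7 and 86.3 RPKM and Atg7 KO at 141, 72.6 and 112 RPKM. The groups did not overlap, and the control libraries, at 20.9 to 54.0 RPKM, lay above all Fip200 KO libraries. Its log2 difference was 2.59 ± 0.485 (SE; limma, adjusted p = 0.364), and 2.87 without Fip200 KO 3 (adjusted p = 0.0493). Isg15, a ubiquitin-like modifier, stood at 16.8, 31.9 and 47.7 RPKM in Fip200 KO, with Atg5 KO at 91.6, 68.6 and 178 RPKM and Atg7 KO at 226, 130 and 174 RPKM. Here too every conjugation library was above every Fip200 KO library, and its log2 difference was 2.16 ± 0.409 (SE; limma, adjusted p = 0.364). Ifi44, an interferon-induced protein, had 8.80, 27.0 and 31.5 RPKM in Fip200 KO and 40.4 to 98.9 RPKM in the conjugation group. Bst2, which tethers budding virus to the cell surface, was the most abundant of these genes, at 229 to 334 RPKM in Fip200 KO and 370 to 711 RPKM in the conjugation group, a log2 difference of 1.00 ± 0.229 (SE; limma, adjusted p = 0.568).

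The same order held for Oasl2 and Oasl1, relatives of the oligoadenylate synthetases. Oasl2 was at 3.09, 4.69 and 12.8 RPKM in Fip200 KO and 14.4 to 77.8 RPKM in the conjugation group, and Oasl1 at 9.07, 13.9 and 28.0 RPKM against 32.2 to 266 RPKM. In each of these genes Fip200 KO 3 was the Fip200 KO library nearest to the conjugation group. Zbp1, a sensor of Z-form nucleic acid, was at 0 to 0.358 RPKM in Fip200 KO (0, 4 and 17 reads) and at 0.725 to 1.58 RPKM in the conjugation group (32 to 70 reads). Gbp2, an interferon-induced GTPase, and Tmem173, which encodes STING, completed the 9 genes without overlap, the latter with a margin that vanished at 3 digits (27.4 RPKM in the lowest conjugation and the highest Fip200 KO library). Gbp3 missed the 9 by 1 library: Fip200 KO 3 had 16.3 RPKM, against 2.82 and 4.01 RPKM in Fip200 KO 1 and 2 and 13.4 to 52.0 RPKM in the conjugation group. Oasl1 and Oasl2, Ifit3 and Ifit3b, and the Gbp genes are close relatives, and how reads shared between such genes were counted is not given, so their separate levels are uncertain.

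The promoters of the 5 list members with the smallest p that have an entry are shown because the response element is the sequence through which interferon acts on such genes. Each window covers 250 bases before and 50 after the gene start, written 5′ to 3′ along the gene, from RefSeq on GRCm38.p6: Isg15 at chr4:156200769-156201068, Bst2 at chr8:71537423-71537722, Ifi44 at chr3:151749861-151750160 and Irf7 at chr7:141266375-141266674, all on the minus strand, and Oasl2 at chr5:114896684-114896983 on the plus strand. Capitals mark matches on either strand to GAAANNGAA, the core of the element.
Isg15: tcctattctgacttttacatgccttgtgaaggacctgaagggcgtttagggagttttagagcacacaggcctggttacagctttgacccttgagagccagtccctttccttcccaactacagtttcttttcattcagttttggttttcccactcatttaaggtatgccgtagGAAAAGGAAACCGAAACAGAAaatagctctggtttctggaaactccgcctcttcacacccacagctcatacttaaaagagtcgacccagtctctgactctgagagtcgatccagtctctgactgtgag
Bst2: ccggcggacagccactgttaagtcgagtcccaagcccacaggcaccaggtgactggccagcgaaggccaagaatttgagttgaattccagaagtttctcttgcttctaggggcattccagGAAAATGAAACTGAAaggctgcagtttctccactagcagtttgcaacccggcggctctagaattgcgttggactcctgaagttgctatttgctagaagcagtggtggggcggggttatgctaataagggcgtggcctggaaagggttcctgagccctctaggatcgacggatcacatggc
Ifi44: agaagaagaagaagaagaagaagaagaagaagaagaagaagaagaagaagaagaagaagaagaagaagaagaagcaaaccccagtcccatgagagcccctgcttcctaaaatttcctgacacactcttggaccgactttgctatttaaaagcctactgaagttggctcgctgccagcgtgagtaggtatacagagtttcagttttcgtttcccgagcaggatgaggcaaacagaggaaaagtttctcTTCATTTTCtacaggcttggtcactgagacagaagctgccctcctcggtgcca
Irf7: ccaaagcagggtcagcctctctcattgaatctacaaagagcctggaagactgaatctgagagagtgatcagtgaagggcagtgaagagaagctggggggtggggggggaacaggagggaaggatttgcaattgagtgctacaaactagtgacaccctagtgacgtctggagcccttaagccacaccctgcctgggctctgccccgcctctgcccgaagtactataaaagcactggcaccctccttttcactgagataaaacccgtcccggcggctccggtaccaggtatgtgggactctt
Oasl2: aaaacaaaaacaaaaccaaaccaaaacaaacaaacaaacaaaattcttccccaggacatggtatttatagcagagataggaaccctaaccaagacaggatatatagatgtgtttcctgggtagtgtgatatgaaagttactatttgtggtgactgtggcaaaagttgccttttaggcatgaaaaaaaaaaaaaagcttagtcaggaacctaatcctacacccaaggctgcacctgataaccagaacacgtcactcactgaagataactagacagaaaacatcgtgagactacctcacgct
Isg15 had 3 overlapping matches starting at -78, -72 and -66 from the gene start, Bst2 had 2 overlapping matches at -130 and -124, and Ifi44 had 1 at -3, on the opposite strand. Irf7 and Oasl2 had no match to these letters in their windows. Of the 42 genes on the list 30 had a window, matched by symbol, and 19 of them (63.3%) held a match, beside 9.76% of the 27025 genes in the RefSeq table and 8.39% of the 9293 tested genes with a window.

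**Figure D2:**
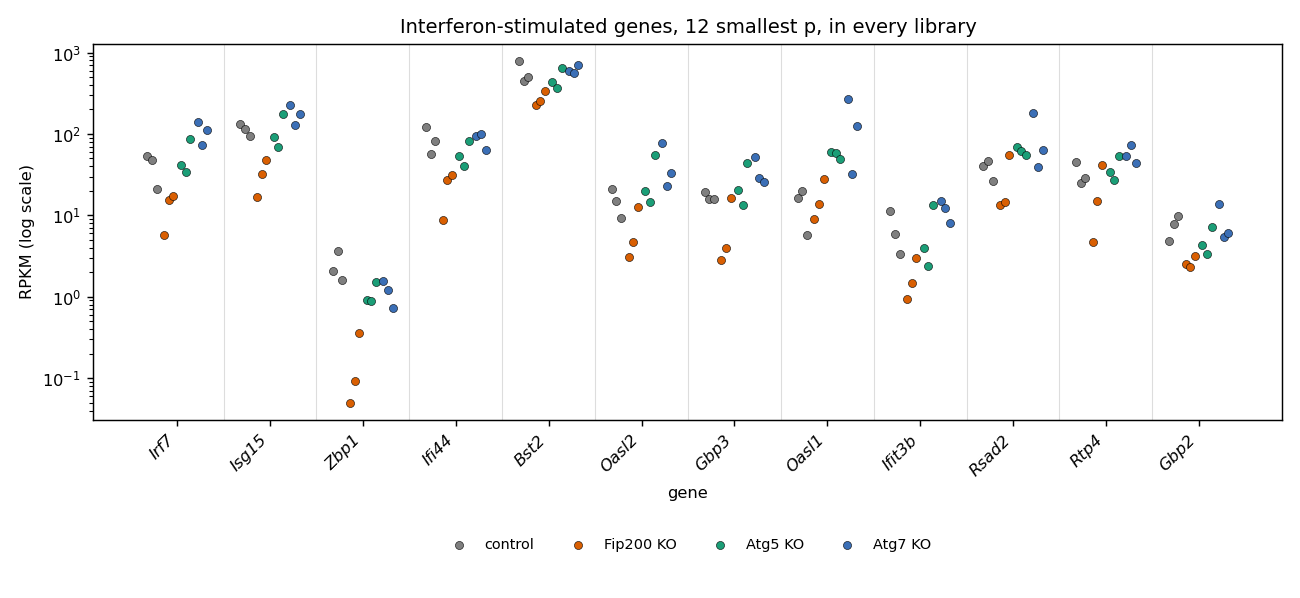
RPKM on a log axis for the 12 interferon-stimulated genes with the smallest p, each point 1 library, with control grey, Fip200 KO orange, Atg5 KO green and Atg7 KO blue and replicates 1 to 3 from left to right. Fip200 KO libraries form the low end of most genes, with Fip200 KO 3 mostly the highest of the 3; the value of 0 for Zbp1 is drawn at 0.05.

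Averaged over the 41 tested genes of the list, the mean of log2(RPKM + 0.5) was 2.48, 3.02 and 3.74 in Fip200 KO, with Atg5 KO at 3.77, 3.49 and 4.49 and Atg7 KO at 4.91, 4.28 and 4.34. Fip200 KO 3 thus lay above Atg5 KO 2, and it was the highest of the Fip200 KO libraries at 35 of the 41 genes. The control libraries lay at 4.18, 3.90 and 3.59, within the range of the conjugation group. Relative to the control mean the median gene was 0.687 lower in Fip200 KO, with 36 of the 41 genes higher in control, and 0.297 higher in the conjugation group; these values share the control libraries and are given side by side without a test. The median gene was 0.0857 above control in Atg5 KO and 0.615 above it in Atg7 KO. The control libraries carry the letters FY (control 1) and JG (control 2 and 3), and control 1, named like the Fip200 KO libraries, had the highest of the 3 control means.

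Genes that pass the interferon signal on were looked at with lists drawn up after the values were seen. None of the 5 receptor genes tested, among them Ifnar1 and Ifnar2, had an unadjusted p under 0.05, and their median was 0.0752. Ifnar1 was at 12.3 to 24.1 RPKM in Fip200 KO and 14.5 to 21.1 RPKM in the conjugation group. In the list for signal transduction the median was 0.0931, and 2 of 12 were higher at an unadjusted p under 0.05, against 3.93% of all genes. Among them was Usp18, which restrains the receptor (1.06 ± 0.368, SE; limma, adjusted p = 0.589). Jak1 and Tyk2 had differences of 0.0218 and -0.165. Among 20 genes that sense nucleic acids or relay their signal, 5 were higher, against 3.93% of all genes, and 1 (Irf5, -1.13) lower, against 3.87%, at an unadjusted p under 0.05. Without Zbp1 it was 4 of 19, and of the 5 all but Adar, namely Irf7, Zbp1, Ifih1 and Tmem173, also stand on the list of interferon-stimulated genes.

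MHC class I presentation, which interferon also induces, had a list median of 0.728, and 11 of 21 tested genes had an unadjusted p under 0.05 in the higher direction, against 3.93% of all genes, with none called (limma, adjusted p) over 9 libraries and 3 called higher without Fip200 KO 3, against 1.39%. H2-Q4, a class I heavy chain, was at 10.7, 4.49 and 8.03 RPKM in Fip200 KO and 14.2 to 64.9 RPKM in the conjugation group, with no overlap; class I genes are a family of near copies, so its count is uncertain. Tapbp, which loads peptide, was at 29.4 to 46.5 RPKM against 51.7 to 86.4 RPKM. B2m, the shared light chain, was at 924, 615 and 352 RPKM in Fip200 KO and 892 to 1320 RPKM in the conjugation group, and here Fip200 KO 3 was the farthest from that group. For Psmb8, a subunit of the immunoproteasome, which stood at 0.866, 0.366 and 2.68 RPKM against 1.72 to 30.2 RPKM, it was the nearest. Control levels were higher than Fip200 KO levels for all 4 genes (B2m 1690 to 2720 RPKM, Tapbp 106 to 149 RPKM).

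Cholesterol synthesis stood lowest among the lists with more than 3 tested genes. SREBP2 drives these genes when membrane sterol runs low. The list had a median of -0.633, with 24 of 26 tested genes below 0, 7 with an unadjusted p under 0.05 in the lower direction, against 3.87% of all genes, and none in the higher; none was called by limma over 9 libraries. Without Fip200 KO 3 the median was -0.947 and 7 of 26 were called lower, against 1.42% of all genes. The 7 genes with an unadjusted p under 0.05 became 2 without Fip200 KO 1, 1 without Fip200 KO 2 and 0 with the term for the library-name letters, where the median was -0.868. Lss, lanosterol synthase, was the only 1 of 26 without overlap, against 1.84% of all genes, at 9.33, 12.2 and 5.46 RPKM in Fip200 KO and 1.91 to 4.28 RPKM in the conjugation group (-1.26 ± 0.282, SE; limma, adjusted p = 0.568). Idi1, which isomerizes isopentenyl diphosphate, was at 64.2, 71.9 and 28.8 RPKM against 8.62 to 31.7 RPKM, and Mvd, mevalonate diphosphate decarboxylase, at 22.3, 20.3 and 6.26 RPKM against 4.29 to 8.88 RPKM. In both genes Fip200 KO 3 lay inside the conjugation range. Hsd17b7, a 3-ketosteroid reductase of the pathway, stood at 7.59, 10.8 and 5.05 RPKM against 2.41 to 5.70 RPKM.

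The mean of log2(RPKM + 0.5) over the 26 genes was 4.43, 4.66 and 3.66 in Fip200 KO 1 to 3, 3.71 to 4 in Atg5 KO, 3.02 to 3.75 in Atg7 KO and 4.40 to 4.68 in control. Fip200 KO 3 was the lowest of the Fip200 KO libraries at 21 of the 26 genes and lay within the conjugation range, while Fip200 KO 1 and 2 were at the level of control. Relative to the control mean, the median gene was 0.32 lower in Fip200 KO and 0.917 lower in the conjugation group, again with shared control libraries. For interferon-stimulated genes and for cholesterol genes alike, Fip200 KO 3 was the Fip200 KO library nearest to the conjugation group.

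**Figure D3:**
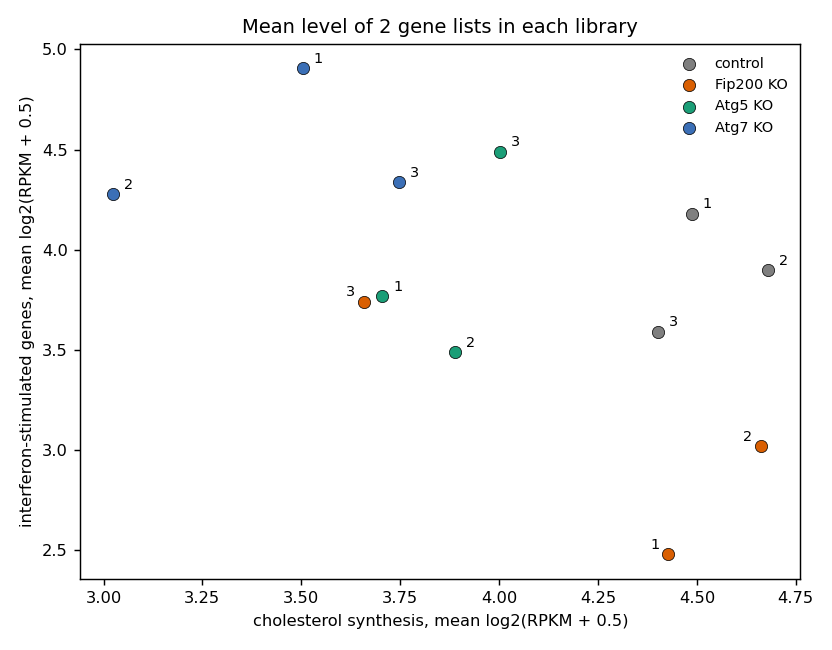
Mean log2(RPKM + 0.5) of the 26 cholesterol synthesis genes (x axis) and of the 41 interferon-stimulated genes (y axis) in each library, numbered by replicate, with control grey, Fip200 KO orange, Atg5 KO green and Atg7 KO blue. Fip200 KO 1 and 2 lie at the lower right, at 2.48 and 3.02 on the y axis, and Fip200 KO 3 lies beside the Atg5 KO libraries.

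Ranked by p among genes without overlap, the genes lower in the conjugation knockouts began with Spp1, which encodes osteopontin, a secreted ligand of integrins and CD44. It stood at 29.9, 38.0 and 53.2 RPKM in Fip200 KO, with Atg5 KO at 9.47, 13.9 and 5.79 RPKM and Atg7 KO at 6.27, 6.17 and 10.9 RPKM. The groups were well apart, with a log2 difference of -2.18 ± 0.298 (SE; 95% interval -2.84 to -1.51; limma, adjusted p = 0.269), a 4.52-fold difference on this scale. Control libraries were higher than all KO libraries but uneven, at 59.4, 1370 and 127 RPKM. Without Fip200 KO 3 the difference was -1.96 (limma, adjusted p = 0.0427).

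Smim3, a small membrane protein, was at 9.10, 5.53 and 5.37 RPKM in Fip200 KO and 1.49 to 2.86 RPKM in the conjugation group (-1.42 ± 0.231, SE; limma, adjusted p = 0.364). Alox5ap, which presents arachidonic acid for leukotriene synthesis, was at 3.83, 2.84 and 1.89 RPKM against 0.365 to 1.30 RPKM. Ptk2b encodes PYK2, a kinase that FIP200 was named for binding together with its relative FAK. Ptk2b was at 15.5, 9.31 and 5.45 RPKM in Fip200 KO and 2.59 to 4.6 RPKM in the conjugation group (-1.29 ± 0.292, SE; limma, adjusted p = 0.568; without Fip200 KO 3 -1.64, adjusted p = 0.0427), and at 11.0 to 13.2 RPKM in control. Atp1b1, the beta subunit of the sodium-potassium pump, was at 10.5, 6.37 and 3.98 RPKM against 0.224 to 3.52 RPKM. In all 5 of these genes, Spp1 included, each control library lay above each conjugation library.

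The other genes that the rule named on this side were Arhgap22, a GTPase-activating protein for Rac, Fam84b, Il12rb1, a subunit of the receptors for interleukins 12 and 23, Fam198b, Lpin1, a phosphatidate phosphatase, and Sdc2, the heparan sulfate proteoglycan syndecan-2. Their log2 differences ran from -1.65 to -1 with adjusted p of 0.589 by limma. In 2 of them a single library set the size: Sdc2 was at 22, 22.8 and 85.6 RPKM in Fip200 KO against 13.5 to 17.4 RPKM, and Fam84b at 6.33, 6.02 and 17.1 RPKM against 1.33 to 5.70 RPKM, each with Fip200 KO 3 far above the rest. For Arhgap22 it was Fip200 KO 1, with 63.6 RPKM beside 25.0 and 24.1 RPKM.

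**Figure D4:**
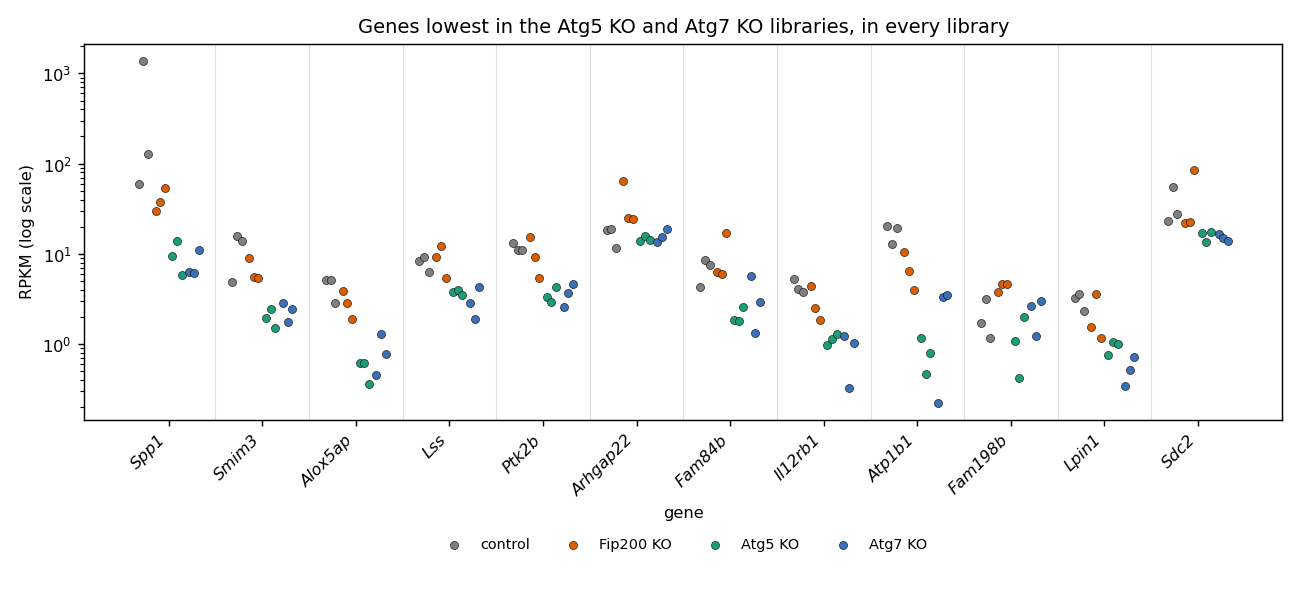
RPKM on a log axis for the 12 genes named as lower in the conjugation knockouts, each point 1 library, coloured by genotype as in the plot of interferon-stimulated genes. Every Atg5 KO and Atg7 KO point lies under the Fip200 KO points of the same gene, and for Spp1 control 2 reached 1370 RPKM.

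Genes higher in the conjugation group were ranked by p among those without overlap, at 1 log2 unit or more and a mean of 1 RPKM. Outside the interferon response, Atf5, a transcription factor of the stress response, headed this ranking. It was at 15.6, 34.6 and 18.4 RPKM in Fip200 KO and 48.8 to 97.4 RPKM in the conjugation group (1.52 ± 0.279, SE; limma, adjusted p = 0.364), and 29.2 to 37.6 RPKM in control. Agrn, the basement membrane proteoglycan agrin, was at 12.5, 28.1 and 10.6 RPKM against 28.9 to 69.3 RPKM. Hdc, histidine decarboxylase, which makes histamine, was at 0.315, 0.373 and 1.08 RPKM against 1.81 to 6.57 RPKM, and at 0.190 to 0.220 RPKM in control.

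Wtip, a LIM domain protein of cell junctions, was at 0.439, 4.24 and 0.839 RPKM in Fip200 KO and in a narrow range of 5.23 to 7.08 RPKM in the conjugation group (1.86 ± 0.413, SE; limma, adjusted p = 0.568). Without Fip200 KO 2 its difference was 2.55 with an adjusted p of 0.00634. Mcts2 was at 1.78, 4.94 and 4.36 RPKM against 8.57 to 11.5 RPKM, but it is a retrocopy of Mcts1 lying inside another gene, so its reads are uncertain. AW011738, a gene without a described function, was at 0.349 to 1.07 RPKM against 1.84 to 3.19 RPKM.

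The genes that follow were named because they were called once Fip200 KO 3 was left out, so that its distance from Fip200 KO 1 and 2 at them comes from the choice; their values are a description. On the lower side Gm5886, Igfbp5, Slco2a1, Ero1l, Psg22 and Pglyrp1 had the largest differences among genes without overlap over the 8 libraries, between -4.41 and -2.86. Ero1l, an oxidase of the endoplasmic reticulum that hypoxia induces, was at 1130 and 806 RPKM in Fip200 KO 1 and 2, at 65.3 RPKM in Fip200 KO 3 and at 57.1 to 295 RPKM in the conjugation group. Pglyrp1, a peptidoglycan recognition protein, was at 80.1, 57.2 and 1.07 RPKM against 4 to 18.9 RPKM, so that Fip200 KO 3 lay under the conjugation range. Igfbp5, an IGF binding protein, was at 369, 56.7 and 2.55 RPKM against 0.158 to 22.3 RPKM. With all 9 libraries the differences of these 6 genes were -2.45 to -1.05, and the 95% limma interval of 4 of them, Gm5886, Igfbp5, Psg22 and Pglyrp1, included 0.

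On the higher side the 6 were Cmpk2, Psmb8, Gbp3, Snord42b, She and Fosb, with differences of 2.59 to 3.17 over 8 libraries. The 3 with the largest belong to the interferon or class I lists. Cmpk2, a mitochondrial nucleotide kinase beside Rsad2, was at 0.696, 4.08 and 20.4 RPKM in Fip200 KO and 11.1 to 61.8 RPKM in the conjugation group, and Fosb, an AP-1 subunit, at 4.08, 0.565 and 9.23 RPKM against 6.52 to 27.9 RPKM. In these 2 genes Fip200 KO 3 lay inside the conjugation range. She, an adaptor protein, was at 3.04, 4.18 and 46.7 RPKM against 11.0 to 46.2 RPKM. Snord42b is a small RNA within an intron of a host gene, whose reads cannot be told apart from it here. It had 0, 2 and 10 reads in Fip200 KO and 6 to 9 reads in the conjugation group, so its difference rests on few reads.

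In the ULK1 and FIP200 initiation complex (5 of 5 genes tested) the median was 0.133, with Atg101 at 0.161, Atg13 at 0.111, Ulk2 at 0.133, Ulk1 at -0.162 and Rb1cc1 at 0.531, and no unadjusted p under 0.05. In the LC3 conjugation machinery (12 of 12 tested) the median was -0.196, and 10 of 12 were below 0. Atg4c, a protease that primes LC3, was the only member with an unadjusted p under 0.05, at -0.497 ± 0.22 (SE; limma, adjusted p = 0.639). Atg7 was at -1.07 ± 0.519 (SE; adjusted p = 0.656) and Atg5 at -0.299 ± 0.236 (SE; adjusted p = 0.773), and both are targets of the knockouts. Atg3, Atg4a, Atg4b, Atg4d, Atg10, Atg12, Atg16l1, Atg16l2 and Tecpr1 lay between -0.35 and 0.222. The differences of the ATG8 proteins were similarly small, Map1lc3a (0.327), Map1lc3b (-0.251), Gabarap (0.21), Gabarapl1 (-0.273) and Gabarapl2 (-0.102), of which none had an unadjusted p under 0.05.

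Upstream of conjugation, 2 of 19 genes of the PI3-kinase complex and phagophore growth were lower at an unadjusted p under 0.05, against 3.87% of all genes. These were Atg9b, a lipid scramblase, at -0.823 ± 0.23 (SE; limma, adjusted p = 0.589) and Nrbf2 at -0.416. Wipi1 and Atg14, of the same list, were at -0.668 and -0.425, and Atg14 was the 1 of 19 without overlap between groups, against 1.84% of all genes. Without Fip200 KO 3 Wipi1 was at -1.1 and was called lower (limma, adjusted p = 0.0584), 1 of 19 genes against 1.42% of all genes, and the list median went from -0.0487 to -0.0905. The 19 selective autophagy receptors had a median of -0.0403 (-0.153 without Fip200 KO 3), and Ncoa4, the ferritin receptor, was lower (-0.45) at an unadjusted p of 0.0204 by limma (adjusted p = 0.589), with Fundc1 at -0.355, Bcl2l13 at -0.38 and Wdfy3 at 0.36. Among the partners of FIP200 outside autophagy, 7 of 8 were tested, with a median of -0.183 that turned to 0.108 without Fip200 KO 3. Ptk2b was lower as given above, while Ptk2, which encodes FAK, was at 42.9, 48.5 and 39.2 RPKM in Fip200 KO and 48.6 to 62.6 RPKM in the conjugation group, a difference of 0.295 ± 0.131 (SE; limma, adjusted p = 0.639) without overlap. Trp53, Tsc1, Tsc2, Rb1 and Traf2 were at -0.209, -0.185, 0.213, -0.183 and 0.103.

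Lysosomal and stress pathways had small medians with all 9 libraries. The lysosomal list had a median of -0.138 over 36 genes (-0.316 without Fip200 KO 3), with Tfeb, a regulator of lysosome genes, at 5.23, 2.01 and 1.76 RPKM in Fip200 KO and 0.946 to 1.92 RPKM in the conjugation group (-0.831 ± 0.309, SE; limma, adjusted p = 0.589), and with Psap, Gusb and Ctsl at -0.365, -0.435 and 0.46. The V-ATPase list had a median of 0.0157 over 17 genes, with Atp6v0a1 at -0.539, Atp6v0a2 at 0.259, Atp6v1h at -0.233 and Atp6v1e1 at -0.327. The targets of NRF2, which p62 accumulation activates when autophagy fails, had a median of 0.154 over 31 genes, which turned to -0.074 without Fip200 KO 3. Of the 31, 2 were higher at an unadjusted p under 0.05, against 3.93% of all genes, namely Pgd (0.445) and Txn1 (0.485), while Tkt was at -0.452 and Gstm2 at -1.30. In the list of the mTORC1 pathway and ATF4 targets the median was -0.0675, and -0.32 without Fip200 KO 3, when 2 of 37 genes were called lower and 1 higher by limma, against 1.42% and 1.39% of all genes. Its members went both ways: Atf5 and Akt1s1 (0.586) were higher at an unadjusted p under 0.05, and Ddit3 (CHOP, -1.04 ± 0.311, SE; limma, adjusted p = 0.589) and Nprl3 (-0.382) lower.

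Inflammatory and matrix genes lay on either side of 0 with all 9 libraries. NF-kB and TNF response genes had a median of -0.0792 over 37 genes (-0.119 without Fip200 KO 3), with Sele, the leukocyte adhesion receptor E-selectin, at 29.1, 43.1 and 24.4 RPKM in Fip200 KO and 7.23 to 24.6 RPKM in the conjugation group (-1.16 ± 0.338, SE; limma, adjusted p = 0.589), and Fadd, Nfkb2 and Nfkbia at 0.568, 0.509 and 0.399. The matrix list had a median of -0.0506 over 40 genes (-0.234 without Fip200 KO 3, and -0.088 without Col1a2, which passed the filter only through the conjugation libraries); besides Spp1, Sdc2 and Agrn it held Itga7 at -0.783. The JAK-STAT3 list had a median of -0.0359 (-0.146 without Fip200 KO 3), with Mcl1 at 0.493, Stat3 at -0.348, Pim3 at 0.319 and Hif1a at -0.529.

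Cell division genes had a median of 0.295, with 37 of 44 above 0, and Pcna (0.493) was the only one with an unadjusted p under 0.05, against 3.93% of all genes, followed by Bub1b, Tyms and Kif20a at 0.373, 0.498 and 0.324. Fip200 KO 3 had the highest mean log2(RPKM + 0.5) of all, 5.309, beside 4.413 and 4.565 in Fip200 KO 1 and 2 and 4.791 to 5.146 in the conjugation group. Without Fip200 KO 3 the median was 0.557 and 5 of 44 were called higher by limma, against 1.39% of all genes. With a term for the library-name letters in a fit of all 12 libraries the median turned to -0.179. Cytosolic ribosomal proteins had a median of 0.213, with 64 of 76 above 0 and 5 without overlap, against 1.69% of all genes, and Rpl13a was at 443 to 569 RPKM in Fip200 KO and 574 to 753 RPKM in the conjugation group. The median was 0.0561 without Fip200 KO 2, 0.372 without Fip200 KO 3 and 0.104 with the term for the library-name letters. Rpl34 and Rpl12 were at 0.645 and 0.35, but Rpl34, 1 of the 5 without overlap, had only 12 to 42 reads per KO library. Fip200 KO 3 was the highest of the Fip200 KO libraries at 38 of 44 cell division genes and 62 of 76 ribosomal genes. The respiratory chain had a median of 0.0802 over 74 genes, with Ndufa3 (0.646 ± 0.127, SE; limma, adjusted p = 0.418) and Cox6b1 (0.333) higher without overlap, against 1.69% of all genes, and Ndufa12 and Atp5e at -0.397 and 0.283. Genes of glycolysis and the hypoxia response had a median of -0.154 over 32 genes (-0.389 without Fip200 KO 3, when 3 of 32 were called lower by limma, against 1.42% of all genes), with Ndrg1 at -0.807, Pfkp at -0.806 and P4ha1 at -0.526 beside Ero1l.

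**Figure D5:**
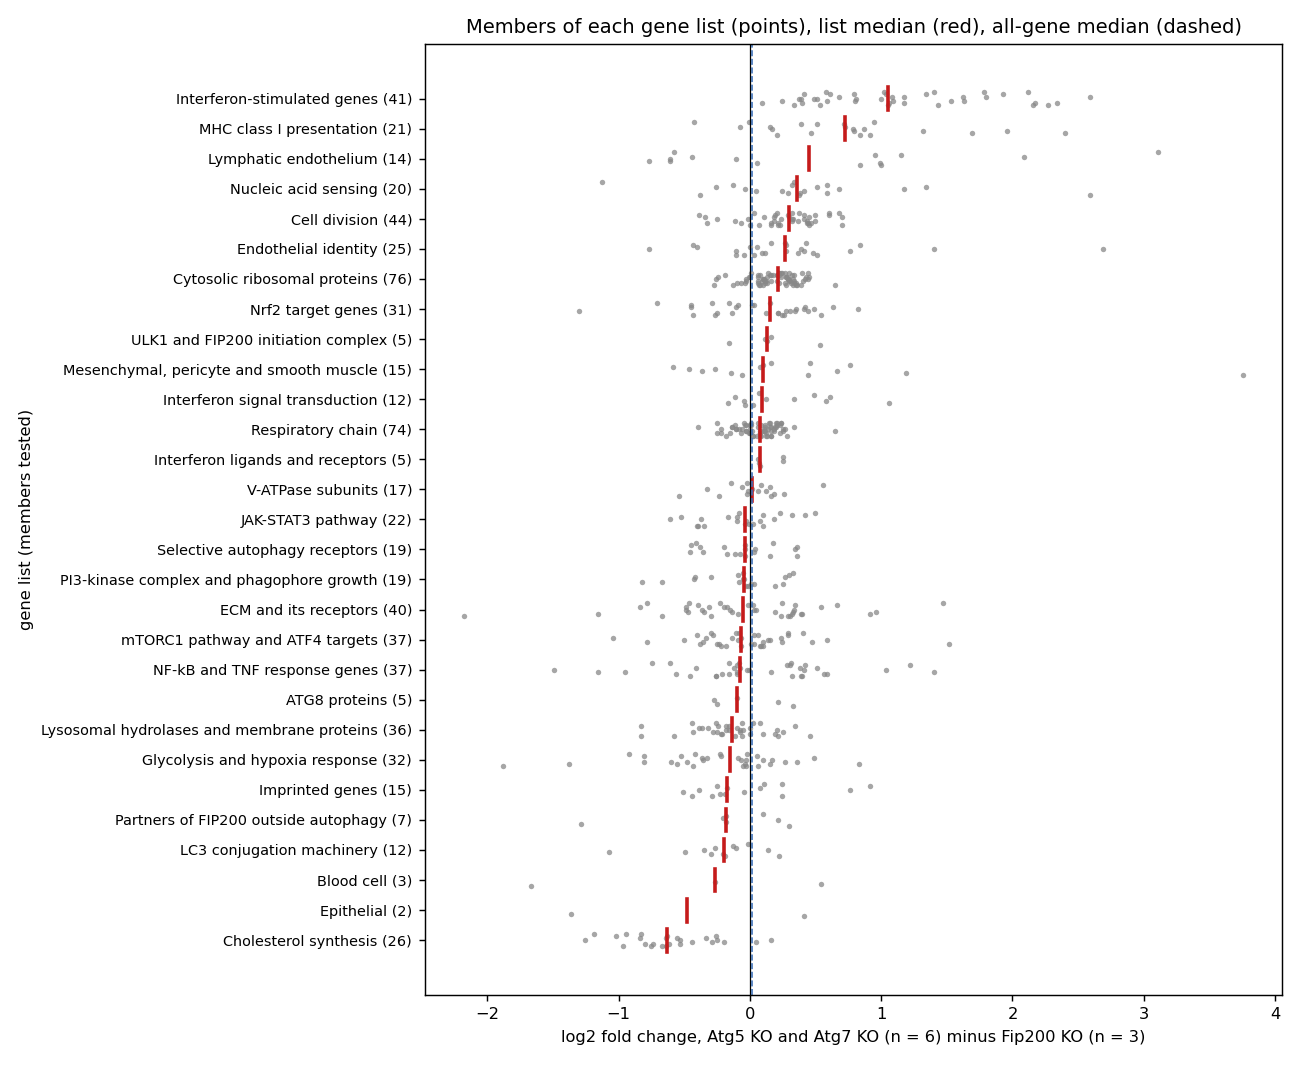
Log2 difference between the Atg5 KO and Atg7 KO libraries and the Fip200 KO libraries (x axis) for each tested member (grey points) of each gene list (y axis, with the number tested), the red line being the list median and the dashed line the median of all genes. Interferon-stimulated genes have the highest median, 1.05, and cholesterol synthesis the lowest, -0.633.

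The endothelial list had a median of 0.27 over 25 genes. Erg, a factor that maintains endothelial fate, was at 69.7, 85.7 and 99.6 RPKM in Fip200 KO and 102 to 144 RPKM in the conjugation group (0.415 ± 0.159, SE; limma, adjusted p = 0.589) without overlap, Robo4 and Gata2 were at 0.511 and -0.772, and Mcam was at 0.837, 0.687 and 3.80 RPKM against 0.960 to 29.2 RPKM. The lymphatic list had a median of 0.449 over 14 genes, which turned to -0.396 without Fip200 KO 3. Reln and Tbx1 passed the filter only through the conjugation libraries, and the other 12 genes had a median of -0.0249. Its member Mmrn1 was at 0.179, 1.62 and 0.276 RPKM in Fip200 KO, with Atg5 KO at 13.1, 26.6 and 14.4 RPKM and Atg7 KO at 1.42, 1.26 and 27.2 RPKM. Tbx1 was at 0 or 0.0335 RPKM in Fip200 KO, and Nrp2 differed by -0.443. The blood list had 3 tested genes, Cd68 (-1.67), Lyz2 (0.539) and Cd14 (-0.265), and the epithelial list 2, Krt19 (-1.36) and Krt18 (0.41).

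In the mesenchymal list Mgp, matrix Gla protein, an inhibitor of calcification, followed the letters of the library names. It was at 82.7 RPKM in Atg5 KO 3 and 69.7, 73.4 and 73.1 RPKM in Atg7 KO, the 4 libraries named Yang, at 0.0839 and 0 RPKM in Atg5 KO 1 and 2, at 0.491 to 0.665 RPKM in Fip200 KO and at 0.0855 to 4.59 RPKM in control. Its log2 difference of 3.76 ± 1.82 (SE; limma, adjusted p = 0.656) turned to -2.74 with a term for the library-name letters in the fit of 12 libraries. Zeb2, Col1a2 and Tagln, of the same list, were at -0.586, 0.661 and 1.19. The imprinted genes had a median of -0.174, with 9 of 15 below 0. Of these, Impact and Ndn were higher (0.763 and 0.911) at an unadjusted p under 0.05, and Gnas and Asb4 were at 0.244 and -0.287.

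The 2 conjugation knockouts were also set against Fip200 KO each on its own, with the 3 Fip200 KO libraries shared by both comparisons. Limma called 0 of 11937 genes in Atg5 KO against Fip200 KO (0%, smallest adjusted p 0.359, 770 genes at an unadjusted p under 0.05) and 0 in Atg7 KO against Fip200 KO (0%, smallest adjusted p 0.557, 728 genes). The calls were 173 and 282 without Fip200 KO 3. Interferon-stimulated genes had a median difference of 0.764 in Atg5 KO and 1.37 in Atg7 KO, and cholesterol genes of -0.402 and -0.863. Irf7 was at 2.06 in Atg5 KO and 3.13 in Atg7 KO, Isg15 at 1.80 and 2.53, Spp1 at -2.04 and -2.31 and Ptk2b at -1.30 and -1.27.

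Between them, Atg7 KO and Atg5 KO differed at 1 of 11937 genes (0.00838%), Disp2, a relative of the Hedgehog release protein Dispatched. Disp2 was at 0.821, 0.744 and 1.03 RPKM in Atg7 KO, 4.66, 4.04 and 5.95 RPKM in Atg5 KO and 1.63 to 1.90 RPKM in Fip200 KO, so that the pooled group straddled Fip200 KO. Its difference, Atg7 KO minus Atg5 KO, was -1.97 (limma, adjusted p = 0.0652). It was not called in a fit of only the 6 libraries compared, with a filter at 2 RPKM, or when any library other than Fip200 KO 3 was left out. Further genes with small p were Gpx7 (-2.63), Adgrl2 (-1.48), Snord35a (-1.45), Cited2 (1.30), Pbp2 (2.62) and Anxa1 (0.987), with adjusted p of 0.589 to 0.83. The difference in interferon-stimulated genes between the 2 knockouts had a median of 0.579. Oas3, an oligoadenylate synthetase named after its value was seen, was at 2.15, 1.90 and 6.75 RPKM in Atg5 KO and 14.5, 10.5 and 17.8 RPKM in Atg7 KO (2.01, limma, adjusted p = 0.83), and at 1.61 to 3.17 RPKM in Fip200 KO.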

How the data were processed

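RNA from 562 cells was sequenced from directional NEBNext Ultra II libraries. The authors aligned reads with TopHat2 and used edgeR, and deposited 3 tables of RPKM values per gene; versions, genome build and annotation are not given in the sources used here. The tables were joined on gene identifier (14851 genes, 20 of them at 0 in every library). Whole reads could be recovered for 14851 of 14851 genes (tolerance 1e-09), 17264989 to 21933165 per KO library, a ratio of 1.27; depth sets counting error only.

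Genes with at least 0.5 RPKM in at least 3 libraries were tested with limma 3.58.1 (R 4.3.3, trend) on log2(RPKM + 0.5), with Benjamini-Hochberg adjustment; calls needed an adjusted p no higher than 0.1 and 1 log2 unit or more. Fold changes on this scale understate those of low genes. Tables and figures were made with Python 3.11.15, numpy 2.4.6, pandas 2.3.3 and matplotlib 3.10.9. The fit was tested on simulated data. Single values were tested by exact two-sided permutation over libraries.

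Genes named are the 3 targeted genes, Spp1, the 12 per direction called or, as here, with the smallest p at 1 log2 unit, no overlap and a mean of 1 RPKM, the 6 per direction called without Fip200 KO 3, the 4 per direction between Atg7 KO and Atg5 KO, and up to 4 per list by p, with all members of 4 autophagy lists. The members and lists were chosen with earlier results of these data known, and 4 lists (interferon receptors, interferon signal transduction, nucleic acid sensing, MHC class I) after the values were seen. Some genes that this rule selects are not reported here. Groups came from the labels. Other pseudocounts, filters, scalings, library weights, the replicate block, a term for the library-name letters, voom on recovered reads and leaving out each library were tried.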

Additional observations from a re-analysis of the deposited data

Results flagged for a closer look

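Among the 6 conjugation knockout libraries, 1 library lay far from the other 5 for 13 of 155 genes examined, by Dixon's criterion, which chance alone meets in about 1 of 20 groups. Atg7 KO 2 was the low library for Il12rb1 (0.325 RPKM, others 0.974 to 1.30), Gabarapl1 (29.3, others 50.7 to 56.5), Tsc2 (9.20, others 15.4 to 18.9), Txn1 (239, others 374 to 459) and Akt1s1 (36.0, others 50.0 to 54.1). It was the high library for Ulk2 (8.92 RPKM, others 4.01 to 5.38), Gabarapl2 (199, others 51.1 to 84.7) and Erg (144, others 102 to 111). Atg7 KO 1 was the low library for Igfbp5 (0.158 RPKM, others 6.85 to 22.3), Psg22 (0.681, others 3.75 to 8.62), Atp6v0a2 (21.5, others 26.0 to 27.9) and Psap (277, others 372 to 414), and Atg7 KO 3 for Ifngr2 (21.4, others 27.2 to 31.1). The groups of 3 libraries were not examined in this way.

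Disp2 differed between the 2 conjugation knockouts, by -1.97 log2 units in Atg7 KO against Atg5 KO (limma, adjusted p = 0.0652), with all 3 Atg7 KO libraries below all 3 Atg5 KO libraries; the call ended in a fit of only these 6 libraries, with a filter at 2 RPKM, and when any library other than Fip200 KO 3 was left out.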

How the results depend on the processing

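The number of genes called between the conjugation knockouts and Fip200 KO was 0 in each direction with all 9 libraries weighted alike. Weights estimated for every library, from 0.203 (Fip200 KO 3) to 8.75 (Atg5 KO 1), called 85 genes lower and 81 higher, and leaving out 1 library called 0 to 169 lower and 0 to 165 higher, the upper ends without Fip200 KO 3. The fit of 12 libraries with a term for the library-name letters called 2 lower, Foxf2 and Cxcl5, and 1 higher, Eva1a, named after their values were seen. Foxf2 was at 0 RPKM in all Fip200 KO libraries and at 0 to 0.0438 RPKM in the conjugation group, and Cxcl5 at 0.21 to 0.701 against 0.41 to 16.1 RPKM, so neither was lower in the libraries compared; both were highest in control 2 (15.8 and 20.2 RPKM). Leaving out 1 library gave 0 to 173 calls in Atg5 KO against Fip200 KO and 0 to 282 in Atg7 KO against Fip200 KO, again highest without Fip200 KO 3, and a fit of only the 6 libraries compared called 1 gene in the latter, Mgp. Between Atg7 KO and Atg5 KO the 1 call became 0 with the replicate block and 0 with a filter at 2 RPKM, and leaving out 1 library gave 0 to 2. The replicate numbers did not pair the samples, since same-numbered libraries of different genotypes had correlations of -0.5 to 0.25 in their deviations from the group means; the replicate block left the calls against Fip200 KO at 0. The median of interferon-stimulated genes was 0.745 with library weights and 0.806 with the library-name term, and 0.752 without Fip200 KO 1. For each change of a value, the cause was not tested.

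Of 155 named genes 118 kept their sign under every alternative run and 37 did not. With the library-name term the sign turned for Atg5 (0.00117), Pglyrp1 (0.318), Adgrl2 (-0.159), Snord35a (0.66), Atg13 (-0.218), Atg3 (-0.273), Atg4d (-0.0867), Atg16l2 (0.109), Map1lc3a (-0.069), Gabarapl2 (0.586), Traf2 (-0.349), Ctsl (-0.583), Bub1b (-0.502), Kif20a (-0.361), Cox6b1 (-0.0969), Mgp (-2.74), Col1a2 (-0.0604), Asb4 (0.549) and Tmem173 (-0.0121). With library weights it turned for Pbp2 (-0.644), Anxa1 (-0.0191), Ulk1 (0.109), Atg4d (-0.0855), Atg16l2 (0.347), Gabarapl1 (0.135), Rb1 (0.365), Atp6v1h (0.0619) and Ifnar1 (-0.165). When 1 library at a time was left out, the differences of the following genes spanned 0: Atg10 (-0.612 to 0.0177), Atg12 (-0.2 to 0.013), Atg13 (-0.0182 to 0.208), Atg16l2 (-0.188 to 0.269), Cd14 (-0.872 to 0.223), Gabarap (-0.0637 to 0.486), Gabarapl1 (-0.498 to 0.0552), Gabarapl2 (-0.363 to 0.0765), Ifnar1 (-0.173 to 0.299), Ifngr1 (-0.13 to 0.574), Ifngr2 (-0.0499 to 0.15), Krt18 (-0.49 to 1.09), Lyz2 (-0.127 to 1.02), Pbp2 (-0.161 to 0.628), Rb1 (-0.355 to 0.125), Tecpr1 (-0.604 to 0.0611), Tsc1 (-0.546 to 0.0364) and Ulk2 (-0.0773 to 0.375).

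With 3 Fip200 KO libraries, of which 1 stood apart from the other 2, the spread within that group limits every comparison, and a gene not called is not shown to be level. The letters FY and Fip200 KO mark the same libraries, so that within the 9 libraries they cannot be told apart.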
